A study of Homo sapiens with 18 samples.

Results

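Immunoglobulin variable (V) segments are the short gene pieces that encode most of the antigen-binding part of an antibody chain, and they lie in 3 arrays, the heavy locus on chromosome 14, the kappa locus on chromosome 2 and the lambda locus on chromosome 22. The segments described here are the genes that GENCODE lists under the type IG_V_gene on those chromosomes of hg19. There were 130 of them among 63827 annotated genes on chromosomes 1 to 22 and X, and 143 genes of this type in the whole annotation. The heavy locus held 47, the kappa locus 44 and the lambda locus 37, and 2 further kappa-type segments, called orphons, lay elsewhere on that chromosome, at chr2:87565634-87566158 and chr2:114163973-114164449. A locus was taken from the first to the last of its segments, and each segment was examined together with 1000 bp on either side. The genes were 307 to 1515 bp long.

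The peaks came from HL-60/S4, an established human myeloid leukemia cell line, grown without treatment and used undifferentiated. The linker histones H1.2 and H1.5, proteins that bind the DNA between nucleosomes, were mapped by xChIP-seq, in which fixed chromatin was sonicated before antibody was added, and by xxChIP-seq, in which the antibody entered permeabilized fixed cells and was held by another fixation before sonication. Each protocol was run with each antibody in 3 replicates, which make 12 of the 18 samples; the 6 Input samples are not used here. The authors merged replicates into 1 list of peak positions for each of the 4 pairings of protocol and antibody, so the values below have no spread between replicates, no test was possible between lists or loci, and the depth of the libraries is unknown. Over the known bases of the genome, peaks of H1.2 and H1.5 covered 26.4% and 16.3% in xChIP and 20.2% and 17.2% in xxChIP, and where 4 values follow each other below they stand in this order.

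In developing B cells a V segment is cut and joined to J segments, in the heavy locus to a joined D and J segment, by the RAG recombinase, and the many V segments make the diversity of antibodies. RAG recognizes a signal beside each segment that is made of a conserved heptamer, a spacer of fixed length and a conserved nonamer. Myeloid cells such as the precursors of granulocytes do not assemble antibody genes, and their V segments are normally left in germline order and silent. Whether that holds in HL-60/S4 was not analysed here.

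The signal marks where each segment would be cut, so those of segments that the values below turn on are shown, as read from the GRCh37 (hg19) sequence from 5′ to 3′ on the strand of the segment, with the heptamer and the nonamer in capitals and the spacer in lower case. The first 3 pairs are segments of the proximal copy of the kappa locus and their namesakes in its inverted distal copy, with the same signal in both. They lie at chr2:89326638-89326665 and chr2:90212256-90212283 for IGKV3-11 and IGKV3D-11, at chr2:89619353-89619380 and chr2:89901792-89901819 for IGKV1-39 and IGKV1D-39, and at chr2:89442027-89442054 and chr2:90078314-90078341 for IGKV3-20 and IGKV3D-20, with the proximal segment on the minus strand and the distal on the plus strand. The heavy examples are on the minus strand, IGHV3-23 at chr14:106725160-106725198, IGHV4-31 at chr14:106805168-106805206 and IGHV1-69 at chr14:107169890-107169928. The lambda examples are on the plus strand, IGLV2-23 at chr22:23040907-23040945 and IGLV1-40 at chr22:22764615-22764653.
IGKV3-11: CACAGTGattccacatgaaACAAAAACC
IGKV3D-11: CACAGTGattccacatgaaACAAAAACC
IGKV1-39: CACAGTGttacaagtcataACATAAACC
IGKV1D-39: CACAGTGttacaagtcataACATAAACC
IGKV3-20: CACAGTGattcagcttgaaACAAAAACC
IGKV3D-20: CACAGTGattcagcttgaaACAAAAACC
IGHV3-23: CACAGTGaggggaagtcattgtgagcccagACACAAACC
IGHV4-31: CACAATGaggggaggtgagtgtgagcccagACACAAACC
IGHV1-69: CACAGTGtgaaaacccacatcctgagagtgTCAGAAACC
IGLV2-23: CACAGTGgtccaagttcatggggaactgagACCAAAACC
IGLV1-40: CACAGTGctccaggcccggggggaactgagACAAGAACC
The kappa signals have a spacer of 12 bases and the heavy and lambda signals shown a spacer of 23 bases.

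The first comparison was between each V locus and its flanks of 1 Mb. Across the heavy locus, chr14:106405611-107283280, peaks of H1.2 and H1.5 covered 17.4% and 14.3% of the known bases in xChIP and 32.0% and 33.7% in xxChIP. In the flanks the order of the protocols was the opposite, with 66.3% and 28.1% in xChIP and 12.7% and 18.6% in xxChIP. The heavy V array was thus covered less by both xChIP lists and more by both xxChIP lists than the sequence around it. The lambda locus, chr22:22385332-23223576, was covered to 15.4%, 15.9%, 34.5% and 28.5% in the 4 lists. Its flanks were covered to 44.2%, 24.5%, 17.1% and 15.0%, so the lambda locus differed from its flanks in the same directions as the heavy locus in all 4 lists. The kappa locus, chr2:89184913-90274235 with a gap of 200 kb, was covered to 14.8%, 15.0%, 22.1% and 10.3%, and its flanks to 38.1%, 22.3%, 22.2% and 16.7%. With both flanks counted, the kappa locus was below them in both xChIP lists, like the other loci. Against the lower flank alone it stayed below in xChIP H1.2, with a ratio of 0.403. In xChIP H1.5 it was above that flank, 15.0% against 13.7%, a ratio of 1.10. In xxChIP its difference from the flanks also depended on which flank was used. With both flanks, the xxChIP ratios of locus to flank coverage were 0.995 for H1.2 and 0.614 for H1.5. With the lower flank alone, which is known throughout, they were 1.37 and 0.969, so that xxChIP H1.5 covered the locus and this flank to nearly the same extent, 10.3% and 10.6%.

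Expressed as ratios of locus to flank coverage, xChIP H1.2 gave 0.262 for heavy, 0.388 for kappa and 0.348 for lambda, and xChIP H1.5 gave 0.509, 0.675 and 0.648. The xxChIP H1.2 ratios were 2.52, 0.995 and 2.02, and the xxChIP H1.5 ratios 1.81, 0.614 and 1.90. Against the genome, the heavy locus reached 1.59 times the mean coverage in xxChIP H1.2 and 1.96 times in xxChIP H1.5, and the lambda locus 1.71 and 1.66 times. The kappa locus was at 1.09 and 0.598 times. In both xChIP lists all 3 loci lay below the genome, from 0.562 to 0.658 times in H1.2 and from 0.876 to 0.974 times in H1.5. Low xChIP H1.2 coverage of this size is common: among 2846 windows of 1 Mb over the genome, 39.2% were covered no more than the heavy locus, 29.4% no more than kappa and 32.0% no more than lambda, and in xChIP H1.5 the shares were 42.9%, 49.2% and 55.6%. High xxChIP coverage was less common, since 2.88% of windows reached the heavy level in xxChIP H1.5 and 11.7% in xxChIP H1.2, and 9.31% and 7.80% reached the lambda levels. The kappa level was reached by 39.0% of windows in xxChIP H1.2, and 22.7% were covered no more than kappa in xxChIP H1.5. The joint pattern of the heavy and lambda loci, below the genome in both xChIP lists and above it in both xxChIP lists, was found in 22.9% of windows.

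**Figure D1:**
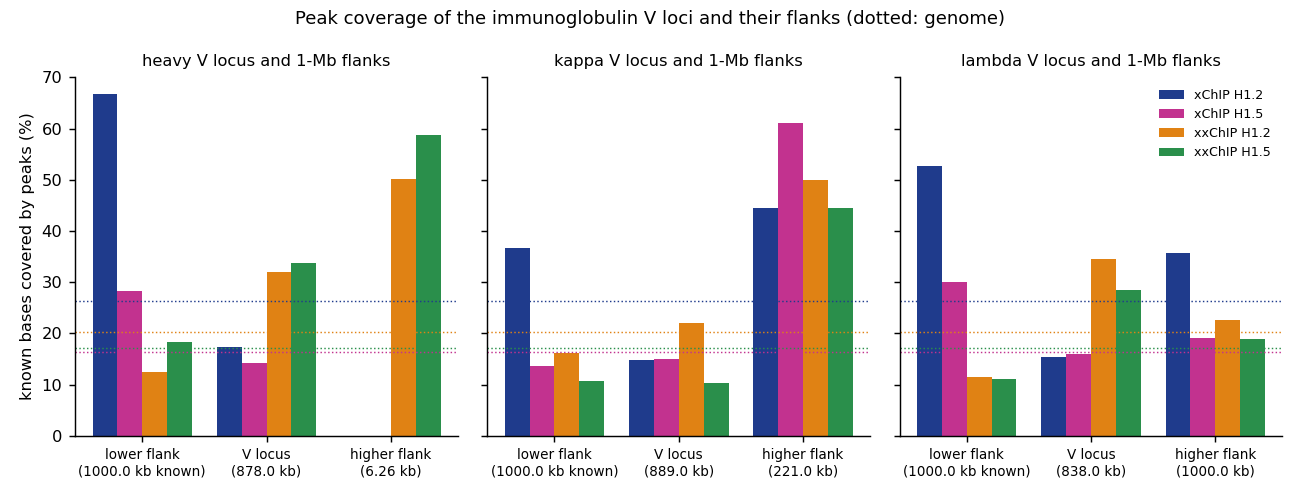
Percent of known bases covered by the peaks of each list (bars, 4 colours) in the heavy, kappa and lambda V loci and in the flank of up to 1 Mb at lower and at higher coordinates, with the known length under each group and dotted lines at the genome coverage of each list. In the heavy and lambda loci the xxChIP bars, from 28.5% to 34.5%, stand above the xChIP bars, from 14.3% to 17.4%, and in the 4 flanks with 1 Mb of known sequence the xChIP H1.2 bars, from 35.7% to 66.7%, are above both xxChIP bars.

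The heavy flanks were unequal. The V array ends near the telomere of the long arm, so that 6.26 kb of known sequence lay beyond it, and the flank at lower coordinates, past the segment nearest to the D segments, held nearly all the rest. That lower flank begins with the D, J and constant segments, 352 kb that were covered to 47.9% and 26.1% in xChIP and to 29.1% and 40.5% in xxChIP. The xxChIP coverage of this region did not lie over its D and J segments, none of which had an xxChIP peak. The 9 constant genes in it had a mean coverage of 6.21% in xxChIP H1.2 and 32.2% in xxChIP H1.5, and the 50 kb next to the V array were covered to 11.3% and 7.26% in xxChIP. The 648 kb beyond them were covered to 76.9% and 29.4% in xChIP but to 3.41% and 6.34% in xxChIP. With flanks of 500 kb in place of 1 Mb, which are mostly D, J and constant segments, the heavy xxChIP ratios came to 1.40 for H1.2 and 1.00 for H1.5. TMEM121, a transmembrane protein gene in the outer flank, shows the contrast, with its whole window covered by xChIP H1.2, 12.4% by xChIP H1.5 and none by xxChIP. MTA1, which encodes a subunit of the NuRD chromatin remodelling complex, was covered to 70.5%, 17.3%, 2.32% and 0. The 16 protein-coding genes of the heavy flanks had a mean coverage of 60.0%, 14%, 1.37% and 0.833%.

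In windows of 50 kb along chromosome 14, the xxChIP coverage of the heavy array was uneven. The window centred 375 kb from its first segment was covered to 77.3% and 84.2% in xxChIP, but to 24.1% and 3.93% in xChIP. Another, at 575 kb, was covered to 48.9% and 64.6% by xxChIP and to 3.10% and 6.21% by xChIP. Between them, at 475 kb, the xxChIP values were 12.9% and 4.13%, so the array was not covered as a single block. A single xxChIP H1.2 peak of 62.1 kb, chr14:106766964-106829044, accounted for much of the first of these windows and reached IGHV4-28, IGHV3-30, IGHV4-31, IGHV3-33 and IGHV4-34. An xxChIP H1.5 peak of 56.1 kb, chr14:106766119-106822245, reached the same segments apart from IGHV4-34. A further xxChIP H1.5 peak of 21.5 kb reached IGHV3-48 and IGHV3-49. The xChIP lists had 51 and 40 peaks in the heavy locus against 43 and 48 in the xxChIP lists, so the lists differed less in number than in length, with medians of 2156 and 2138 bp in xChIP and of 4184 and 4213 bp in xxChIP.

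The lambda locus also carried its xxChIP coverage in blocks. An xxChIP H1.2 peak of 46.1 kb, chr22:23039006-23085096, spanned IGLV2-23, IGLV3-22, IGLV3-21, IGLV3-19 and IGLV2-18, and the 50-kb window centred 675 kb from the first segment was covered to 92.2% and 47.2% in xxChIP and to 4.75% and 10.3% in xChIP. Another xxChIP H1.2 peak of 28.5 kb, chr22:22728648-22757102, spanned IGLV5-45, IGLV1-44 and IGLV7-43. Both xxChIP lists had a long peak around 275 kb, of 51.4 kb in H1.2 and 62.5 kb in H1.5, in a stretch with few segments: the H1.2 peak reached IGLV5-52 and the H1.5 peak none. In these peaks 43.4% and 45.3% of the bases start a 50-base word found once in the genome, a measure explained with the kappa locus. High xxChIP coverage was also found past the array at higher coordinates, where the window centred at 925 kb was covered to 75.2% and 73.0% in xxChIP. The lambda flank at lower coordinates was covered to 52.6%, 30.0%, 11.5% and 11.1% and the flank at higher coordinates to 35.7%, 19%, 22.6% and 18.9%. The ratio to the lower flank alone, 2.99 in xxChIP H1.2, was above the ratio to both flanks.

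Some genes that are no V segments lie among the lambda segments. VPREB1, which encodes a part of the surrogate light chain of pre-B cells, had no peak in any list. ZNF280A, a zinc finger gene, had 60.9% of its window under xChIP H1.2, 11.8% under xxChIP H1.5 and none under the other lists, and ZNF280B to 21.2%, 11.8%, 27.3% and 8.56%. PRAME, a tumour antigen gene, was covered to 9.67%, 6.08%, 8.81% and 0. Just past the array, IGLL5, a gene related to the surrogate light chain, had 32.1% of its window under xxChIP H1.5 and no peak in the other lists. Farther out, BCR, the gene broken in the Philadelphia translocation, was covered to 40.4%, 14.9%, 10.7% and 10.4%.

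**Figure D2:**
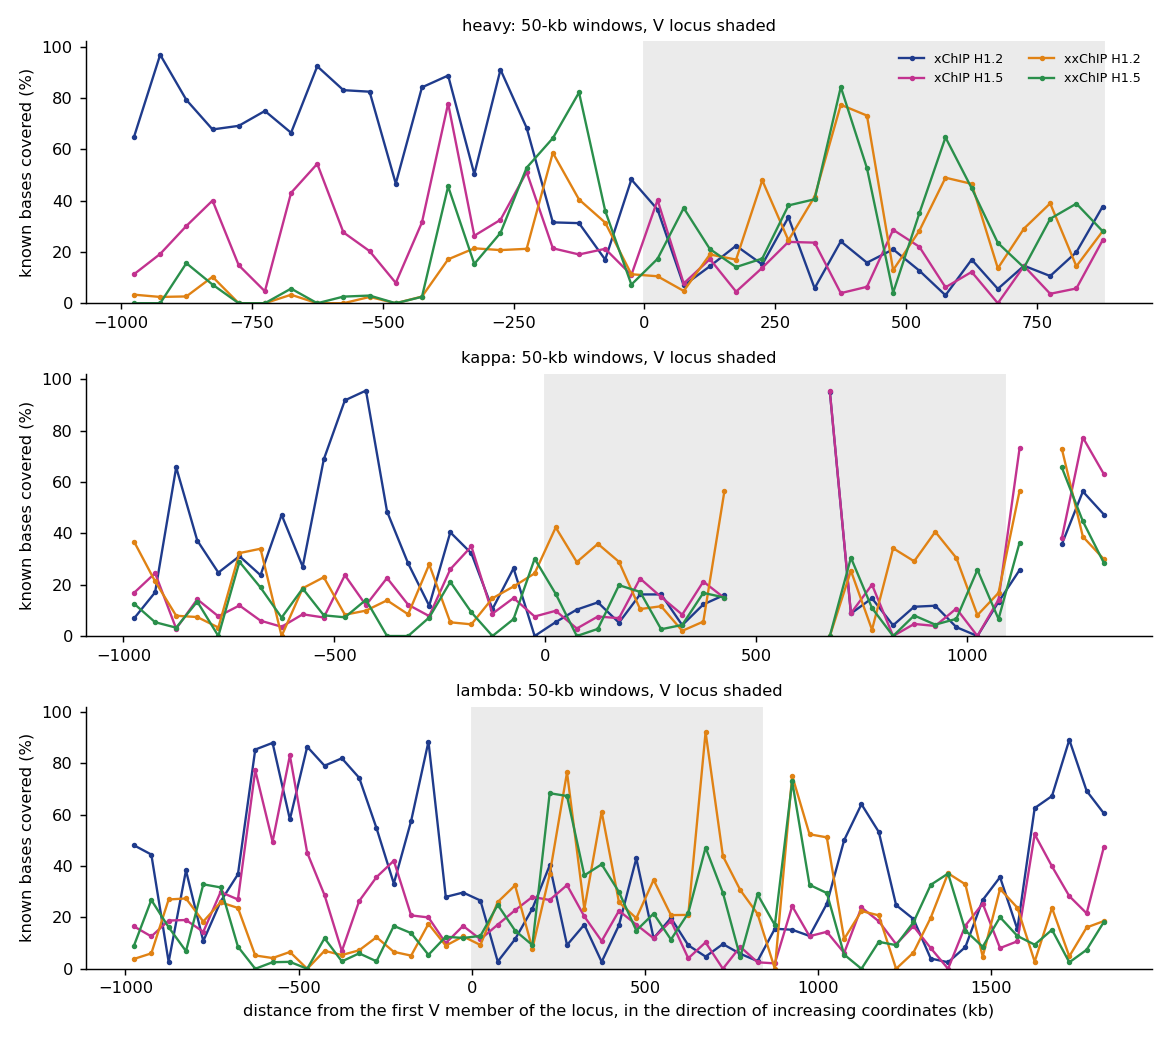
Percent of known bases covered in windows of 50 kb (points joined by lines, 1 colour for each list) against the distance in kb from the first V segment, for the heavy, kappa and lambda loci, with the V locus shaded and windows of mostly unknown sequence left out. The xxChIP lines rise in blocks inside the heavy and lambda loci, to 84.2% and 92.2%, and the kappa locus has a window at 95.2% and 95.3% in the xChIP lists between its copies.

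The kappa locus consists of a proximal copy, next to the J and constant segments, and an inverted distal copy. The proximal copy, 445 kb, was covered to 10.9% and 12.1% in xChIP and to 24.4% and 10.5% in xxChIP. The distal copy, 384 kb, was covered to 7.26%, 7.15%, 22.1% and 11.6%, and so had the same order of H1.2 and H1.5 in xxChIP. The 60.4 kb of known sequence between the copies, which hold no V segment, were covered to 91.3% and 86.4% in xChIP, against 4.92% and 0 in xxChIP. Most of that stretch was a single peak of 52.2 kb in each xChIP list, chr2:89830333-89882528 in H1.2 and chr2:89830336-89882548 in H1.5, beside the gap. The kappa values around it carry a limit of their own, because the authors kept reads that map to 1 place. Of the bases of the kappa locus, 47.2% start a 50-base word found once in the genome, against 88.4% in the heavy and 87.6% in the lambda locus. The share was 11.4% in the kappa flank at higher coordinates, of which 221 kb are known, and there the lists covered 44.5%, 61.1%, 49.9% and 44.4%. Counted over bases of such words alone, the kappa ratio rose to 1.34 in xChIP H1.5 and to 1.49 in xxChIP H1.2, and against the lower flank alone it was 1.10 in xChIP H1.5. The direction of the kappa locus against its flanks in these lists therefore depends on which bases are counted, whereas xChIP H1.2 stayed below its flanks under every alternative computed.

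Each locus had a lower GC content than its flanks. The GC content was 41.5% in the heavy locus and 56.2% in its lower flank, 45% in the lambda locus and 49.5% and 50.6% in its flanks, and 40.3% in the kappa locus and 42.0% and 43.0% in its flanks. Other stretches paired GC content and coverage differently. The known sequence between the kappa copies, with 38.2% GC, was covered to 91.3% and 86.4% in xChIP and to 4.92% and 0 in xxChIP. The heavy D, J and constant segments, with 54.7% GC, were covered to 47.9% and 26.1% in xChIP and to 29.1% and 40.5% in xxChIP. The part of GC content in the contrasts was not tested. The lists also shared bases inside the loci to differing degrees. In the heavy locus, 43.1% of the bases covered by either xxChIP list were covered by both, and in the lambda locus 40.9%, against 30.9% over the genome. In the kappa locus the share was 14.5%, so the xxChIP H1.2 and H1.5 peaks there lay mostly at different places. Between the xChIP lists the share was 24.9% in heavy, 37.4% in kappa and 24.3% in lambda, with 26.5% over the genome.

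At the level of the segments, H1.2 peaks of xChIP touched 19 of the 130 windows (14.6%, 95% Wilson interval 9.56 to 21.7%) and H1.5 peaks 14 (10.8%, 6.52 to 17.3%). In xxChIP, H1.2 peaks touched 44 (33.8%, 26.3 to 42.3%) and H1.5 peaks 35 (26.9%, 20.0 to 35.1%). The intervals cover counting error only, and neighbouring segments can share a peak. Among 14602 annotated genes of the same range of length, with the same margins, the shares were 43.0% and 26.6% in xChIP and 27.5% and 23.3% in xxChIP, and among all annotated genes, most of them longer, 65.2%, 51.1%, 47.2% and 44.1%. The V segments were thus well below genes of like length in both xChIP lists and near them in both xxChIP lists, whose intervals include the background. The mean coverage of a window was 7.31% and 4.38% in xChIP and 23.4% and 17.6% in xxChIP. Windows covered from end to end numbered 2, 1, 24 and 17, so that a V segment under an xxChIP peak was often wholly under it. The orphons had no peak in any list. In the window of the orphon at chr2:87565634-87566158, 20.3% of the bases start a 50-base word found once in the genome. For the other orphon this share was not computed.

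How far the segments stood from other genes depended on how a hit was counted. With the gene alone, without margins, the segments had 9.23% and 4.62% in xChIP, against 30.8% and 14.8% of genes of like length, and 23.1% and 16.9% in xxChIP, against 14.8% and 12.1%. With margins of 5000 bp they had 50.0% and 42.3% in xChIP, against 69.1% and 56.4%, and 69.2% and 55.4% in xxChIP, against 56.6% and 51.9%. When at least 50% of the window had to be covered they had 6.92% and 3.08% in xChIP, against 27.1% and 11.4%, and 21.5% and 16.9% in xxChIP, against 12.4% and 9.88%. With peaks of at least 2000 bp alone, genes of like length came to 35.0%, 17.6%, 19.4% and 15.3%, and the segments to 7.69%, 4.62%, 28.5% and 24.6%. Over all segments, the xChIP shares were below the background under each of these counts, and the xxChIP shares above it. Not every locus followed in xxChIP H1.5. Kappa segments were below the background under each count, with 9.09%, 22.7%, 9.09% and 13.6% in the order above. Lambda segments were below it with the gene alone and with 50% of the window, at 8.11% in both.

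Within xxChIP, the loci differed more in H1.5 than in H1.2. In xxChIP H1.5, 20 of 47 heavy segments had a peak (42.6%, 29.5 to 56.7%), above the background of 23.3%, against 7 of 44 kappa segments (15.9%, 7.93 to 29.4%) and 8 of 37 lambda segments (21.6%, 11.4 to 37.2%). The heavy and kappa intervals lay side by side, but they count each segment as independent and are therefore too narrow. The 20 heavy segments were touched by 15 peaks, and 1 peak held 4 segments. The heavy count also includes IGHV2-70 and IGHV2-70D, whose annotations overlap. With overlapping annotations counted once the heavy share was 42.2%. With margins of 5000 bp the xxChIP H1.5 shares were 74.5% in heavy, 70.3% in lambda and 22.7% in kappa. The difference between heavy and lambda thus depended on the window. The kappa share carries the limit given above, that 47.2% of the bases of that locus start a 50-base word found once. No test of the difference between loci was made. In xxChIP H1.2 the counts were 15 of 47 heavy (31.9%), 17 of 44 kappa (38.6%) and 12 of 37 lambda (32.4%) segments, and their intervals overlapped widely. In xChIP H1.2 there were 8 heavy (17.0%), 4 kappa (9.09%) and 7 lambda (18.9%) segments with a peak, and in xChIP H1.5 there were 5 (10.6%), 4 (9.09%) and 5 (13.5%). All 6 of these xChIP shares lay below the background of their list, though the lambda interval in xChIP H1.5, 5.91 to 28.0%, includes it. The xxChIP H1.5 mean coverage of heavy windows, 32.5%, was higher than in kappa, 9.54%, and lambda, 9.09%, whereas xxChIP H1.2 gave 20.8%, 23.5% and 28.0%.

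**Figure D3:**
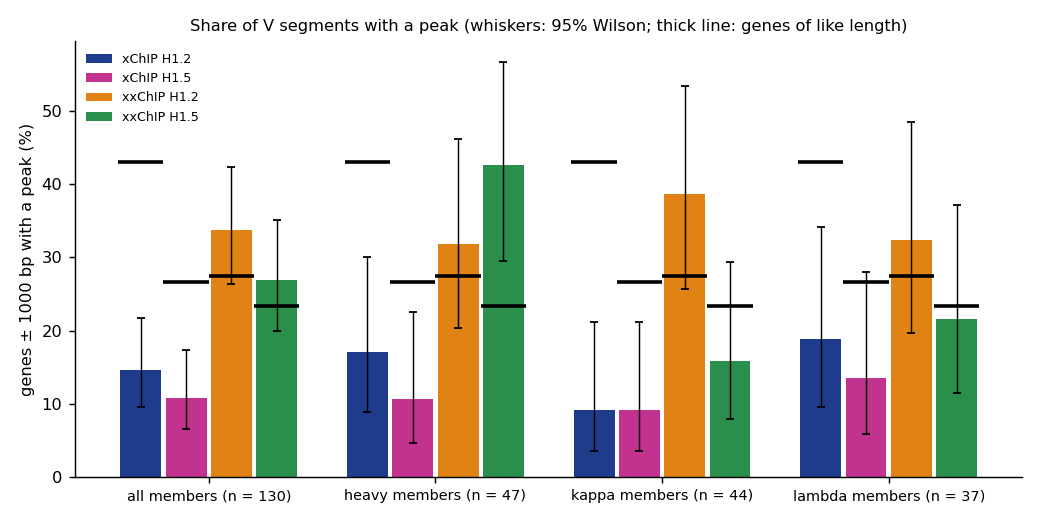
Percent of V segments (gene ± 1000 bp) with a peak in each list (bars) for all 130 segments and for the heavy, kappa and lambda segments, with 95% Wilson intervals as whiskers and the share of genes of like length as thick horizontal lines. The xChIP H1.2 bars, from 9.09% to 18.9%, stay under their line at 43.0%, and the heavy xxChIP H1.5 bar, at 42.6%, rises above its line at 23.3%.

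More segments had peaks of xxChIP alone than of xChIP alone. Peaks of an xxChIP list and of no xChIP list were found at 44 segments (33.8%, against 19.1% of genes of like length), the reverse at 16 (12.3%, against 34.0%), and peaks of both protocols at 16 (12.3%, against 19.3%). No peak at all was found at 54 segments (41.5%, against 27.6%). Both xxChIP lists reached 19 segments (14.6%, against 12.4%), both xChIP lists reached 1 (0.769%, against 16.3%), and none was reached by all 4. The segment with both xChIP lists was IGLV4-60, which was covered to 22.4% and 25.5% in xChIP and to 13.5% in the H1.2 list of xxChIP. By locus, xxChIP alone marked 17 heavy, 16 kappa and 11 lambda segments, and xChIP alone 6, 4 and 6. Shares without a peak were 36.2% in heavy, 45.5% in kappa and 40.5% in lambda.

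**Figure D4:**
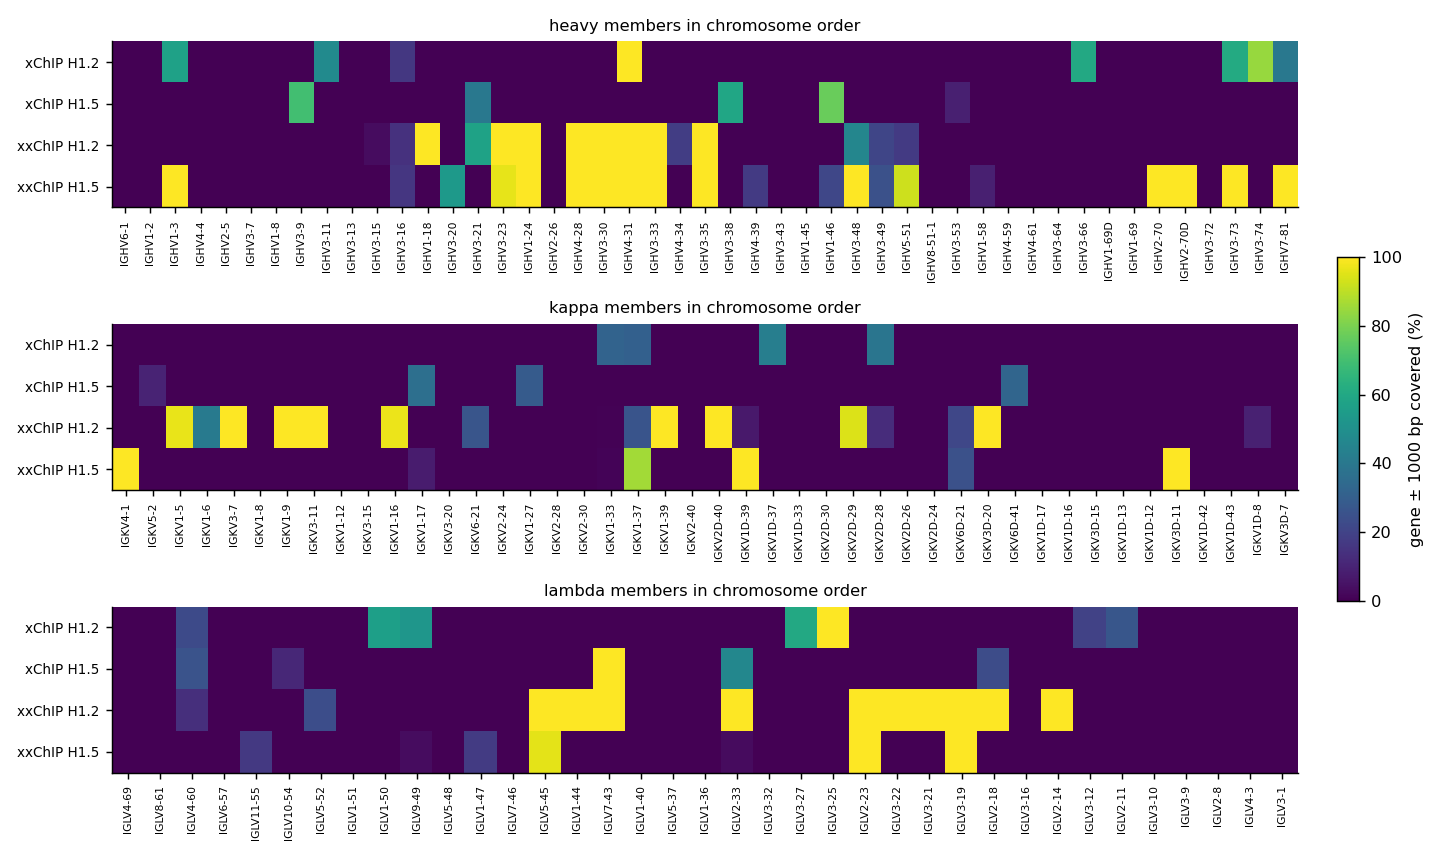
Percent of each V segment's window (gene ± 1000 bp) covered by peaks, as colour from 0 to 100%, with the 4 lists as rows and the segments of the heavy, kappa and lambda loci in chromosome order as columns. Neighbours from IGHV4-28 to IGHV3-33 are fully covered in both xxChIP rows and those from IGLV2-23 to IGLV2-18 in the xxChIP H1.2 row, and the xChIP rows hold 3 fully covered windows, IGHV4-31, IGLV3-25 and IGLV7-43, beside scattered partial coverage.

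In the heavy locus, IGHV6-1, the segment nearest to the D segments, had no peak in any list, and its neighbour IGHV1-2 likewise. The most covered segments stood in the middle of the array. The window of IGHV4-31 was covered in full by xChIP H1.2, xxChIP H1.2 and xxChIP H1.5 and not at all by xChIP H1.5. The windows of IGHV1-24, IGHV4-28, IGHV3-30, IGHV3-33 and IGHV3-35 were covered in full by both xxChIP lists and by neither xChIP list. IGHV3-30 and IGHV3-33 are near copies of each other, and 36.4% and 36.8% of the bases of their windows start a 50-base word found once in the genome, against 86.4% for IGHV4-28 and 99.3% for IGHV1-24. IGHV3-23, a segment often used in antibodies, had its whole window under xxChIP H1.2 and 96.1% of it under xxChIP H1.5, with no xChIP peak. IGHV1-69, also often used, had no peak in any list, and IGHV4-34 had 18.2% in xxChIP H1.2 alone.

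The opposite pattern, xChIP without xxChIP, was seen at IGHV3-74, covered to 84.4% by xChIP H1.2, and at IGHV3-9, covered to 69.8% by xChIP H1.5. IGHV7-81, the last segment before the telomere, had 40.1% under xChIP H1.2 and its whole window under xxChIP H1.5. Among the heavy V families, which group segments by sequence, the IGHV3 family of 22 had 5, 4, 9 and 9 segments with a peak in the order of the 4 lists. The IGHV1 family of 10 had 1, 1, 2 and 4, and the IGHV4 family of 7 had 1, 0, 3 and 3. The 4 IGHV2 segments had peaks in xxChIP H1.5 alone, at IGHV2-70 and IGHV2-70D, whose annotations overlap and which are therefore not independent. No heavy family of more than 1 segment was covered throughout. The background for these counts is the share of genes of like length, 43.0%, 26.6%, 27.5% and 23.3%.

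In the kappa locus, IGKV4-1, the segment nearest to the J segments, was covered in full by xxChIP H1.5 and by no other list. IGKV3D-7, the last by coordinate, had no peak, nor had IGKV1-8 and IGKV1-12. In their windows 0.352%, 63.0% and 13.6% of the bases start a 50-base word found once in the genome. Whether few uniquely mapped reads fell on IGKV3D-7 and IGKV1-12 was not tested. Without read numbers, the lack of a peak there says little. The largest sum over the lists was at IGKV1-37, with 30.7% under xChIP H1.2 and with 25.9% and 86.0% under the H1.2 and H1.5 lists of xxChIP. Partial xChIP coverage without xxChIP was seen at IGKV1D-37, to 42.9% in H1.2, and at IGKV6D-41, to 32.7% in H1.5. The IGKV1 family of 21 had 3, 2, 9 and 4 segments with a peak in the order of the lists. The IGKV2 family of 10 had 1, 0, 3 and 0, and the IGKV3 family of 8 had 0, 0, 3 and 1. Among genes of like length the shares were 43.0%, 26.6%, 27.5% and 23.3%.

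The kappa copies allow segments of nearly the same sequence to be compared at different places, and 16 pairs with the same name in both copies were annotated. In xxChIP H1.2 both segments of a pair had a peak in 2 pairs, the proximal alone in 5, the distal alone in 4 and neither in 5. In xxChIP H1.5 the proximal alone had one in 3 pairs, the distal alone in 3 and neither in 10. Among genes of like length, 27.5% had a peak in xxChIP H1.2 and 23.3% in xxChIP H1.5. How often the members of unrelated pairs would differ was not computed, so the pairs named next are examples only. The window of IGKV3-11 was covered in full by xxChIP H1.2 and by no other list, whereas that of IGKV3D-11 was covered in full by xxChIP H1.5 and by no other list, though their signals shown above are the same. IGKV1-39 and IGKV1D-39 had the same division, with full coverage by xxChIP H1.2 at the proximal and by xxChIP H1.5 at the distal segment, which also had 6.68% in xxChIP H1.2. IGKV3-20, the kappa segment often used in antibodies, had no peak, and IGKV3D-20 was covered in full by xxChIP H1.2. Few of the bases in the windows of IGKV1-39 and IGKV1D-39, 5.91% and 5.92%, start a 50-base word found once in the genome, and the reads behind those peaks were not analysed here. The share was 63.5% and 53.2% for IGKV3-11 and IGKV3D-11 and 67.5% and 69.0% for IGKV3-20 and IGKV3D-20.

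In the lambda locus, the outermost segments had no peak: neither IGLV4-69 and IGLV8-61 at the far end nor IGLV3-1, next to the J segments. IGLV7-43 was covered in full by xChIP H1.5 and by xxChIP H1.2 and not by the H1.2 list of xChIP or the H1.5 list of xxChIP. IGLV2-23 and IGLV3-19 were covered in full by both xxChIP lists and by no xChIP list, and between them IGLV3-22 and IGLV3-21, the latter often used in antibodies, by xxChIP H1.2 alone. IGLV2-14, another often used segment, was covered in full by xxChIP H1.2 alone, and IGLV1-40 had no peak. Beside this block, IGLV3-25 was covered in full and IGLV3-27 to 60.4% by xChIP H1.2 and by no other list. Of the 6 IGLV2 segments, 4 had a peak in xxChIP H1.2, and the mean coverage of their windows was 66.7%. The IGLV3 family of 11 had 3, 0, 3 and 2 segments with a peak, and the IGLV1 family of 6 had 1, 0, 1 and 1. Among genes of like length, 43.0%, 26.6%, 27.5% and 23.3% had a peak in the 4 lists.

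The loci also hold 147 V pseudogenes, copies that no longer encode a chain. In xChIP, a peak of H1.2 touched 21.1% of them (95% Wilson interval 15.3 to 28.4%) and of H1.5 16.3% (11.2 to 23.1%), and in xxChIP 41.5% (33.8 to 49.6%) and 40.1% (32.6 to 48.2%). Each share was above that of the segments in the same list, with intervals that overlapped. Among the other segment types, the 27 D segments, which are packed so closely that many of their windows overlap, were touched in xChIP and not in xxChIP. H1.2 peaks of xChIP touched 19 (70.4%) and H1.5 peaks 7 (25.9%). Among genes in the length range of the V segments the shares were 43.0% and 26.6%. No background of the length of the D segments was computed. The 6 heavy J segments had no peak in any list, and the 5 kappa J segments, whose windows overlap, had a peak in xxChIP H1.2 alone. Of the 9 heavy constant genes, 7, 5, 4 and 8 had a peak in the order of the lists (77.8%, 55.6%, 44.4% and 88.9%). Among all annotated genes the shares were 65.2%, 51.1%, 47.2% and 44.1%, and no background of the length of the constant genes was computed. IGHD, the constant gene of IgD, had 48.6% under xChIP H1.2 and 69.4% under xxChIP H1.5, and IGHM, that of IgM, had 3.53% and 1.11% under the xxChIP lists. IGKC, the kappa constant gene, had no peak.

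Peak coverage was followed along the 5 kb on either side of the 5′ end of the segments. Taking the 128 segments of the loci together, the 5′ end itself was under a peak in 6.25% and 4.69% for xChIP and in 21.9% and 17.2% for xxChIP. The lists covered 26.4%, 16.3%, 20.2% and 17.2% of the known genome. Against that, the xChIP shares at the 5′ end were low and the xxChIP shares were near the genome level. At 5 kb downstream the shares were 12.5%, 8.59%, 30.5% and 28.9%, and at 5 kb upstream 15.6%, 9.38%, 31.2% and 20.3%. Over the 3 loci together the segment start was the lowest of these 3 positions in every list, but this did not hold in the kappa locus for xxChIP. There H1.2 covered 20.5% at the 5′ end, 18.2% at 5 kb upstream and 13.6% at 5 kb downstream, and H1.5 covered 9.09%, 6.82% and 11.4%. In the lambda locus xxChIP H1.5 covered 8.11% at the 5′ end and 32.4% at 5 kb downstream, and xChIP H1.2 covered 8.11% both at the 5′ end and at 5 kb upstream. In the heavy locus xxChIP H1.5 had 31.9% at the 5′ end and 42.6% at 5 kb downstream. Positions nearer the start could be lower than the start itself. In the heavy locus xChIP H1.5 covered 8.51% at the 5′ end, but 2.13% at 1200 bp upstream and at 800 bp downstream. In the kappa locus no segment start was under an xChIP H1.5 peak.

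**Figure D5:**
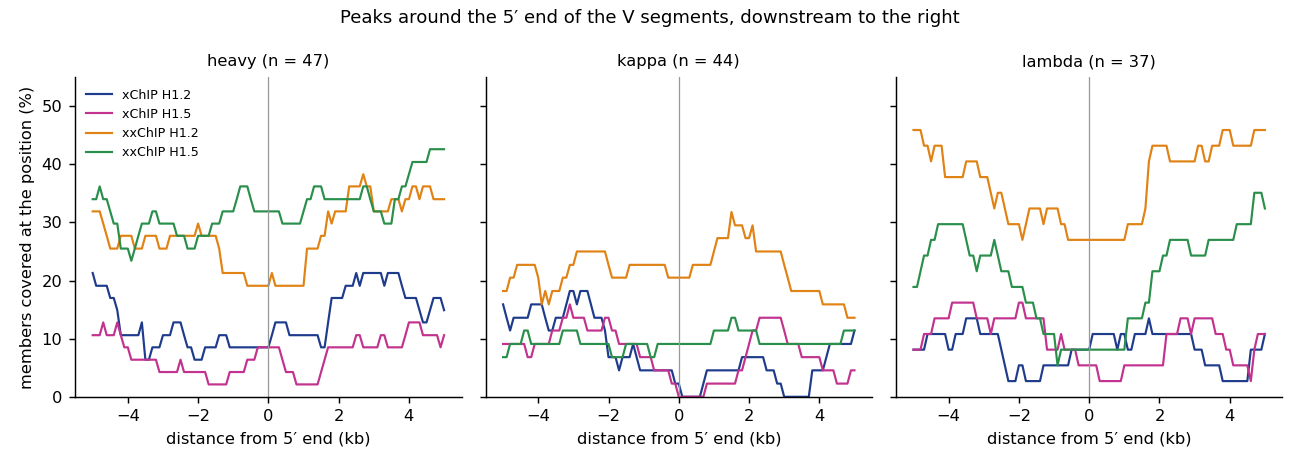
Percent of the heavy, kappa and lambda V segments covered by a peak at each position from 5 kb before to 5 kb after the 5′ end, in steps of 100 bp and in the direction of the segment, for the 4 lists. The xxChIP H1.2 line of the lambda segments is at 27% at the 5′ end and 45.9% at 5 kb downstream, and the xChIP lines are below the xxChIP H1.2 line at the 5′ end in all 3 loci.

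A recombination signal was found beside 125 of the 130 segments, when heptamer (CACAGTG) and nonamer (ACAAAAACC) were allowed up to 5 mismatches together and the spacer 1 base more or less than 12 or 23. The first 3 bases of the heptamer had to be CAC. The bases searched ran from 15 before to 75 after the annotated 3′ end of the segment. All 43 signals found in the kappa locus had a spacer of 12 bases, and 44 of 45 in the heavy and 32 of 35 in the lambda locus had 23. The heptamer had no mismatch in 105 signals and the nonamer in 27. Signals wholly under a peak numbered 9 (7.20%) and 3 (2.40%) in xChIP and 27 (21.6%) and 21 (16.8%) in xxChIP, and 77 were under none. Genome coverage in the same order was 26.4%, 16.3%, 20.2% and 17.2%. The xChIP shares of signals were thus below it and the xxChIP shares near it. The annotations IGHV1-69 and IGHV1-69D share a signal, as do IGHV2-70 and IGHV2-70D, and over the 123 distinct signals the numbers were 9, 3, 27 and 20, with 76 under none. The order of the lists at the signals was that of the segment windows. No signal was found for IGHV3-16, IGHV8-51-1, IGKV1D-13, IGLV2-33 and IGLV3-22, which says only that these letters were not in the bases searched.

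V promoters carry an octamer, ATGCAAAT, that is bound by OCT1 and OCT2. In either orientation, ATGCAAAT or ATTTGCAT, it stood between 250 bases before and 50 bases after the annotated start of 97 of the 130 segments (74.6%), 40 of 47 heavy (85.1%), 26 of 44 kappa (59.1%) and 30 of 37 lambda (81.1%), against 2.25% of all annotated genes. Segments with xxChIP peaks alone held it in 32 of 44 cases and segments of the loci with no peak in 39 of 52. The median GC content was 45.3% in the windows of the former and 44.3% in those of the latter. The shares of 50-base words found once were 88.1% and 86.6% at the median over the loci together. Within the kappa locus, where such words are fewest, the medians were 50.0% for the 16 segments with xxChIP peaks alone and 34.8% for the 20 with no peak, and the part of this difference in the peaks was not tested.

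The V segments of the T cell receptor loci are built and joined in the same way in T cells, and serve as the nearest comparison. Of 95 such segments, xChIP peaks of H1.2 touched 17.9% (95% Wilson interval 11.5 to 26.8%) and of H1.5 25.3% (17.6 to 34.8%), and the xxChIP peaks 31.6% (23.1 to 41.5%) and 32.6% (24 to 42.6%). The immunoglobulin segments differed from them by less than the width of these intervals in xChIP H1.2 and both xxChIP lists. In xChIP H1.5 the immunoglobulin share of 10.8% had an interval that ended at 17.3%, below the T cell receptor interval, and no test of this difference was made.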

How the data were processed

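Peak positions (chromosome, start and end) were used as deposited by the authors, 1 list for each combination of protocol and antibody. Per the labels and the study's methods, reads were aligned to hg19 with Bowtie2, uniquely mappable reads were kept, enriched regions were called with MUSIC, and the peaks of 3 replicates were merged. The lists hold no score or read number, and Input samples were not analysed here.

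The annotation was GENCODE v44 in its GRCh37 mapping, and sample titles gave the groups. Segments less than 1 Mb apart were chained into a locus, and coverage was the percent of known bases under a peak. A window counted as touched from 1 shared bp. Words of 50 bases were counted over both strands of the genome. Intervals are 95% Wilson intervals, over genes for shares and over units of 10 kb for locus coverage and its ratios. The segments, gene lists and comparisons were chosen with earlier results of these data known. Named segments were, in each locus, the first and last, the pairs with the largest and smallest summed coverage and with the largest xChIP minus xxChIP difference in either direction, and segments often used in antibodies; neighbouring genes were listed. Families, pairs, long peaks and other segments were described after their values were seen. Alternatives changed the window, overlap, peak length, flanks, word length and bases counted. The counting steps were tested on simulated data. Python 3.11.15, numpy 2.4.6, pandas 2.3.3, pyfaidx 0.9.0.4, statsmodels 0.14.6 and matplotlib 3.10.9 were used.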

Additional observations from a re-analysis of the deposited data

Results flagged for a closer look

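Between its first and last segment, the kappa locus moved in opposite directions for H1.2 and H1.5. The coverage of the locus was 7.3 percentage points higher in xxChIP than in xChIP for H1.2, and it changed by -4.7 percentage points for H1.5. The H1.5 value rests on the stretch between the kappa copies, which holds no V segment: without it, xChIP H1.5 covered 9.82% and xxChIP H1.5 11%, so that H1.5 was also higher in xxChIP. In the heavy and lambda loci xxChIP coverage was higher for both. The contrast between the antibodies was not tested, since each value comes from a single merged list, and 47.2% of the bases of the kappa locus start a 50-base word found once in the genome.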

How the results depend on the processing

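The coverage of the 3 loci kept within its interval in 40 of 40 alternative values, but these intervals are wide. They count each 10 kb of known sequence as an independent unit, though peaks reached 62.5 kb. The intervals of the ratios also hold the flank coverage fixed. None of them measures a spread between replicates, so staying within them does not show that a value is stable. Some values moved by over 1.5 times: without the stretch between the copies kappa coverage came to 9.24% in xChIP H1.2 and 9.82% in xChIP H1.5, which turns the sign of the H1.5 difference between protocols, and with all V, D, J and C segments it came to 17.4% in xxChIP H1.5. The ratio of locus to flanks kept within its interval in 46 of 52, among them the kappa ratios that went to 0.242 in xChIP H1.2 and 0.441 in xChIP H1.5 without that stretch and to 0.969 in xxChIP H1.5 against the lower flank alone. Exceptions were the heavy ratio with flanks of 500 kb, 1.4 in xxChIP H1.2 and 1.0 in xxChIP H1.5, the lambda xxChIP H1.2 ratio to the lower flank alone, 2.99, and the kappa ratio, which turned to 1.34 in xChIP H1.5 and 1.49 in xxChIP H1.2 over words found once and to 1.1 in xChIP H1.5 against the lower flank alone. With words of 100 bases, those found once rose to 96.7% in the heavy, 63.8% in the kappa and 95.5% in the lambda locus. Shares of segments moved in 39 of 88 values, and values here give H1.2 and H1.5 of xChIP and then of xxChIP unless named. The gene alone gave 9.23%, 4.62%, 23.1% and 16.9% over all segments, 0.0% for kappa in xChIP H1.5 and 22.7% in xxChIP H1.2, and for lambda 5.41% in xChIP H1.5 and 8.11% in xxChIP H1.5. A margin of 5000 bp gave 50.0%, 42.3%, 69.2% and 55.4% over all, 53.2%, 38.3%, 70.2% and 74.5% for heavy, 47.7%, 38.6% and 59.1% for kappa in the first 3 lists, and 45.9%, 51.4%, 78.4% and 70.3% for lambda. Requiring 50% of the window gave 6.92%, 3.08%, 21.5% and 16.9% over all, 19.1% for heavy in xxChIP H1.2, 0.0%, 0.0% and 20.5% for kappa in the first 3 lists, and for lambda 2.7% in xChIP H1.5 and 8.11% in xxChIP H1.5. Peaks of at least 2000 bp gave 7.69% and 4.62% over all in xChIP, 4.26% for heavy in xChIP H1.5, 2.27% for kappa in xChIP H1.2, and 8.11% and 5.41% for lambda in xChIP. Genes of like length moved too: with the gene alone their shares were 30.8%, 14.8%, 14.8% and 12.1%, and with 5000 bp 69.1%, 56.4%, 56.6% and 51.9%, so that the segments were below them in both xChIP lists and above them in both xxChIP lists under these settings. The cause of the kappa reversals was not tested. Counting overlapping annotations once, leaving out the stretch between the kappa copies and using the lower flank alone were chosen after seeing the data. No paired analysis was possible because the lists merge the replicates and carry no replicate number, and for the same reason no replicate could be left out. Without read numbers, a segment with no peak cannot be told apart from one at which the reads were too few to call a peak.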
